A study of Rattus norvegicus with 27 samples.

Results

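Histone deacetylases of classes I, II and IV are the zinc-dependent enzymes that take acetyl groups off lysines of histones and other proteins. A set of 10 of their genes was looked up by rat gene symbol in a table of read counts with 36865 rows, namely Hdac1, Hdac2, Hdac3 and Hdac8 of class I, Hdac4, Hdac5, Hdac7 and Hdac9 of class IIa, Hdac6 of class IIb, and Hdac11, the sole member of class IV. Of these 10 genes, 9 had a row and 8 had a mean of at least 10 reads per library, the minimum for a test. Hdac7 was listed at 0 in all 27 libraries. The row of Hdac6 was not found by its RefSeq gene ID, and Hdac6 was not analysed here.

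The 27 libraries came from the medial prefrontal cortex (mPFC) of adult male Wistar rats, an outbred strain without a genetic change, with 1 library of polyA RNA per rat. All rats had been through a battery of anxiety tests, were chosen along the range of their scores, and were sampled at rest 2 weeks after the last test. The labels name learned helplessness as the treatment of every sample, while the study's methods describe the test battery only. The study's methods name 2 cohorts of these rats, and the sample titles do not tell them apart. The rats form 1 group with no control, so the values below are levels, spread between rats and relations across rats, and anxiety scores were not used.

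Class I enzymes are mainly nuclear and work in large corepressor complexes, with Hdac1 and Hdac2 as the catalytic subunits of Sin3, NuRD, CoREST and MiDAC and Hdac3 as that of NCoR. Class IIa enzymes have weak deacetylase activity of their own, bind Mef2 transcription factors, and leave the nucleus when calcium-dependent kinases phosphorylate them and 14-3-3 proteins hold them in the cytoplasm. In the brain Hdac2 is known as a brake on memory and synapse formation, and Hdac4, Hdac5 and Hdac9 as links between neuronal activity and transcription.

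Between 4907255 and 12771309 reads per library were counted on genes. Library numbers parted these totals, from 4907255 to 8568317 in the 16 libraries numbered up to 31 and from 9404220 to 12771309 in the 11 numbered from 32. Library 3 stood apart. Its reads on 10 oligodendrocyte markers summed to 63981 normalized counts against 18409 to 43904 in the other 26 libraries, and its interneuron markers summed to 5776 against 6222 to 7804. All 10 excitatory neuron markers of the cortex were detected, at a sum of 34560 to 53072 normalized counts. Values without library 3 are given beside several of the relations below.

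The promoters of 4 members are shown because the results turn on these genes: Hdac1 belongs to the strongest pair, Hdac2 and Hdac4 to the next, and Hdac9 varied most between rats. Each window holds 250 bases before and 50 bases after a RefSeq transcription start of the GRCr8 assembly, read 5′ to 3′ along the gene. Hdac1 lies on the minus strand at chr5:147165338-147165637, Hdac2 on the plus strand at chr20:42102877-42103176, Hdac4 on the minus strand at chr9:100197588-100197887 and Hdac9 on the minus strand at chr6:57052522-57052821. Capitals mark GGGCGG or CCAAT on either strand, so CCGCCC and ATTGG are capitals too, and overlapping matches were counted.
Hdac1: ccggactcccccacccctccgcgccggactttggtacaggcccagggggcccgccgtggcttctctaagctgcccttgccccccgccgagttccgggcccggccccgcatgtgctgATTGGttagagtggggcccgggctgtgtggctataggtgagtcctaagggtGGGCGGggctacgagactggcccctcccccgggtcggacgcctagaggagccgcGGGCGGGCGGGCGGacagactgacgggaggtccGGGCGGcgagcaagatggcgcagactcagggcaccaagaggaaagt
Hdac2: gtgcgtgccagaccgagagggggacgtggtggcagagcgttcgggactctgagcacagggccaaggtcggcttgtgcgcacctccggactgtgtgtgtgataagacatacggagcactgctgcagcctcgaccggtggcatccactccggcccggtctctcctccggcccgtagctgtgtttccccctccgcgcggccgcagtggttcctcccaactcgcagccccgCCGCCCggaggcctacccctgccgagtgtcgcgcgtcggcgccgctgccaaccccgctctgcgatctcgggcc
Hdac4: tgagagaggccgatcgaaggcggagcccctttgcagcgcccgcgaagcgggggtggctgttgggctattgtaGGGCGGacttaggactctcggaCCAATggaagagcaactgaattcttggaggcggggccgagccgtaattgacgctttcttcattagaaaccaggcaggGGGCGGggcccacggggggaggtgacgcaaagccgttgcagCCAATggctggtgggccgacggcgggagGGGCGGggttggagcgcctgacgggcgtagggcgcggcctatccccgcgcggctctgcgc
Hdac9: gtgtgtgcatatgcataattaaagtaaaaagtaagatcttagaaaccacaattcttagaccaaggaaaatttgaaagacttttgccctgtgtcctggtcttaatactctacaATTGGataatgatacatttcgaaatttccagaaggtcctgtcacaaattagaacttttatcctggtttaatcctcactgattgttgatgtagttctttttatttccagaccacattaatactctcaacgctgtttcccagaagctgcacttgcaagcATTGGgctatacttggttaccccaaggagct
GGGCGG, the core of the GC box, occurred 5 times in the Hdac1 window, 1 time in that of Hdac2, 3 times in that of Hdac4 and not in that of Hdac9. It was found in 33.1% of 33469 RefSeq promoters of the same length. CCAAT occurred 2 times each in the windows of Hdac4 and Hdac9 and 1 time in that of Hdac1, against 37.5% of all promoters with a match. TATAAA was in none of the 9 member windows and in 14.2% of all promoters. The windows of Hdac1, Hdac2 and Hdac4 held 27, 33 and 30 CpG dinucleotides, and that of Hdac9 held 2, where the median promoter had 7. Hdac9 has several starts, and the start of the window shown lies inside the annotated gene, far from its outer end. Of the other members, Hdac8 also had a CpG-poor window, with 4 CpG, while those of Hdac3, Hdac5, Hdac6 and Hdac7 held 26, 22, 19 and 26. Hdac11 had no entry.

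Levels are normalized counts, the reads on a gene divided by the size factor of the library. They compare rats for 1 gene. Transcript lengths were not used here, so the levels of different members are not ranked. A bulk sample cannot tell fewer cells that express a gene from less RNA per cell.

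Among the class I genes, Hdac2 stood at 1272 ± 88.1 normalized counts (mean ± SD, n = 27), from 1112 through a median of 1291 to 1425. Hdac3 stood at 767 ± 50.3, from 695 through 757 to 864. The highest level was 1.28 times the lowest for Hdac2 and 1.24 times for Hdac3, and library 3 was highest for both. Hdac1 ranged from 205 through 263 to 321, with a mean of 267 ± 28.1. Library 12 was lowest for Hdac1 and library 3 again highest, a ratio of 1.56. Hdac8, which sits outside the large corepressor complexes and is known to deacetylate cohesin, ranged from 96.9 through 126 to 149, with a mean of 126 ± 14.4.

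Counts of Hdac1 carry an uncertainty of their own. Hdac1l, a protein-coding near copy of Hdac1, had 27.5% to 46.9% as many reads as Hdac1 (median 33.1%), and how reads that match both were assigned is not given in the sources used here. RefSeq lists 18 Hdac1 pseudogenes. Of these, 16 had a row, and no read was counted on any of them.

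Hdac9 and Hdac4 of class IIa differed most between rats. Hdac9 ranged from 45.9 through 115 to 172 normalized counts, with a mean of 115 ± 33.3. Its highest level was 3.74 times its lowest, and libraries 3 and 19, at 45.9 and 50.4, lay below the other 25. Hdac4 ranged from 104 through 186 to 230, with a mean of 177 ± 32.1. Libraries 3 and 18, at 104 and 112, were lowest for Hdac4, and the next was at 140. Hdac5 was steadier, from 1430 in library 20 through 1717 to 2009 in library 54, with a mean of 1732 ± 128. The 27 values of Hdac5 spanned a ratio of 1.40, close to those of the class I genes. Hdac7, the class IIa enzyme best known from vessels and thymus, was listed at 0 throughout. Genes that every cell uses were also listed at 0 in this table, among them Ep300, Chd4 and Sirt1, so the 0 of Hdac7 gives no upper limit for its expression.

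Hdac11 varied least. It ranged from 2168 in library 6 through 2399 to 2610 in library 17, with a mean of 2407 ± 112 and a ratio of 1.2. The deacetylase with the smallest protein of the family, Hdac11 removes long fatty acyl groups from lysines far more efficiently than acetyl groups.

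**Figure D1:**
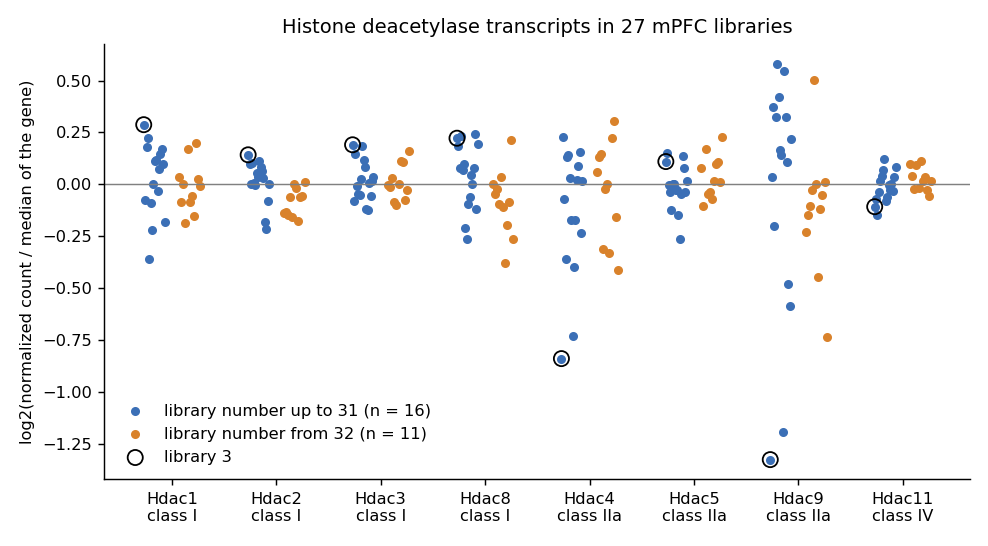
Level of 8 histone deacetylase transcripts in each of 27 libraries, as log2 of the normalized count over the median of the gene, in blue for the 16 libraries numbered up to 31 and in orange for the 11 from 32. Library 3 is circled, lowest for Hdac4 (104) and Hdac9 (45.9) and highest for Hdac1, Hdac2 and Hdac3.

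Each of the 8 genes varied between rats by more than counting error in a chi-square dispersion test, with adjusted p-values from 4.5e-38 for Hdac5 to 0.0221 for Hdac8. This is the common case, as 89.8% of 11730 genes passed the same test. Counting error made up 62.7% of the variance of Hdac8 and 10.6% of that of Hdac9. Hdac8 had the largest counting share of the 8 members and Hdac9 the smallest.

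Set against all genes tested, most members were steady. The SD of log2(normalized count + 1) was 0.07 for Hdac11, and only 0.665% of the genes tested had a lower one. It was 0.09 for Hdac3, 0.10 for Hdac2 and 0.11 for Hdac5, with 5.52%, 8.51% and 11% of genes lower. Hdac1 at 0.15 and Hdac8 at 0.17 were closer to the median of all genes, 0.19. Above it stood Hdac4 at 0.28 and Hdac9 at 0.48, with 72.2% and 91.0% of genes lower. In all, 6 of 8 members lay below the median of all genes, and the median of the members was 0.13. Since this SD depends on the level of a gene, the counting part of the variance was also taken off. The remaining coefficient of variation had a median of 6.97% over the members and 10.8% over all genes tested, from 4.18% for Hdac11 to 16.4% for Hdac4 and 27.4% for Hdac9. Again 6 of 8 members lay below the median of all genes. Without library 3 the SD of Hdac4 was 0.25 and that of Hdac9 0.41, with 69.3% and 88.9% of genes lower.

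**Figure D2:**
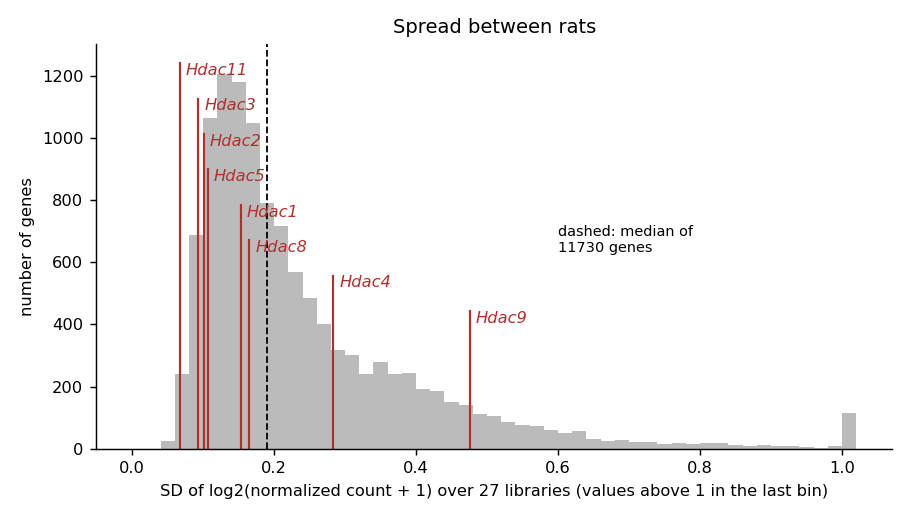
SD of log2(normalized count + 1) over 27 libraries (x axis) for 11730 genes, as the number of genes per bin (y axis), with red lines at 8 histone deacetylases and a dashed line at the median of all genes, 0.19. Hdac11 (0.07) lies near the lower end and Hdac9 (0.48) in the upper tail.

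The second question was whether the members moved together across rats. Correlation is given as Spearman's rho of log2 levels over 27 rats, with Pearson's r beside it, and p-values come from two-sided permutation tests adjusted over 93804 pairs of a member with any gene tested. The 28 pairs of members had rho from -0.653 to 0.341 with a median of 0.0327, and 15 were positive and 13 negative. Only Hdac1 with Hdac11 passed the test. That is 3.57% of the pairs, while 5.01% of all pairs of a member with a gene passed, a like share. The median size of rho, sign aside, was 0.247 among members and 0.213 between members and all other genes.

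Hdac1 and Hdac11 ran in opposite directions. Over 27 rats rho was -0.653 (permutation p = 3.3e-04, adjusted p = 0.0163) and r was -0.596 (adjusted p = 0.0178). Without the 2 libraries farthest from the median of Hdac1 r was -0.611. The highest Hdac1 level, in library 3, went with the second lowest Hdac11 level, 2227, and without library 3 rho was -0.613 (adjusted p = 0.0429). Within the libraries numbered up to 31 rho was -0.676 (permutation p = 0.00492), and within those from 32 it was -0.600 (permutation p = 0.0571). Centred within both sets it was -0.634 (adjusted p = 0.0362), where 3.60% of all pairs of a member with a gene passed. Over 9 alternative settings the adjusted p ranged from 0.0136 to 0.121, and 8 of the 9 kept the call. The exception was scaling by total counts, with rho at -0.471. Hdac11 also rose with the number of reads in a library (rho = 0.568, permutation p = 0.00226, adjusted p = 0.0201), and Hdac1 had rho = -0.339 (adjusted p = 0.241). The part of depth in the relation of Hdac1 to Hdac11 was not tested.

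Hdac2 and Hdac4 came next. Their rho was -0.537 (permutation p = 0.00453, adjusted p = 0.0690), and r was -0.574 (permutation p = 0.00160, adjusted p = 0.0243), so this pair was called by Pearson's r only. It was negative in both number sets, with rho = -0.574 (permutation p = 0.0227) up to 31 and rho = -0.664 (permutation p = 0.0305) from 32. Without the 2 farthest libraries r was -0.549. Without library 3, which had the highest Hdac2 and the lowest Hdac4, rho was -0.482 (adjusted p = 0.144), and over the 9 alternatives the adjusted p ran from 0.0243 to 0.144. Hdac3 and Hdac4 had rho = -0.449 (adjusted p = 0.149) and r = -0.535 (adjusted p = 0.0410), again called by r only. Within the number sets this rho was -0.641 up to 31 (permutation p = 0.00894) and -0.173 from 32 (permutation p = 0.614). Without the 2 farthest libraries r was -0.431, without library 3 rho was -0.383 (adjusted p = 0.287), and over the alternatives the adjusted p ran from 0.0410 to 0.287. By r, 3 of 28 pairs were called, all 3 negative. That is 10.7% of the pairs, beside 10.6% of all pairs of a member with a gene by r. Centred within number sets, r was -0.570 for Hdac2 with Hdac4 and -0.534 for Hdac3 with Hdac4. Neither was then called (permutation test, adjusted p = 0.0562 and 0.0597), while Hdac1 with Hdac11 was (r = -0.588, adjusted p = 0.0380).

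**Figure D3:**
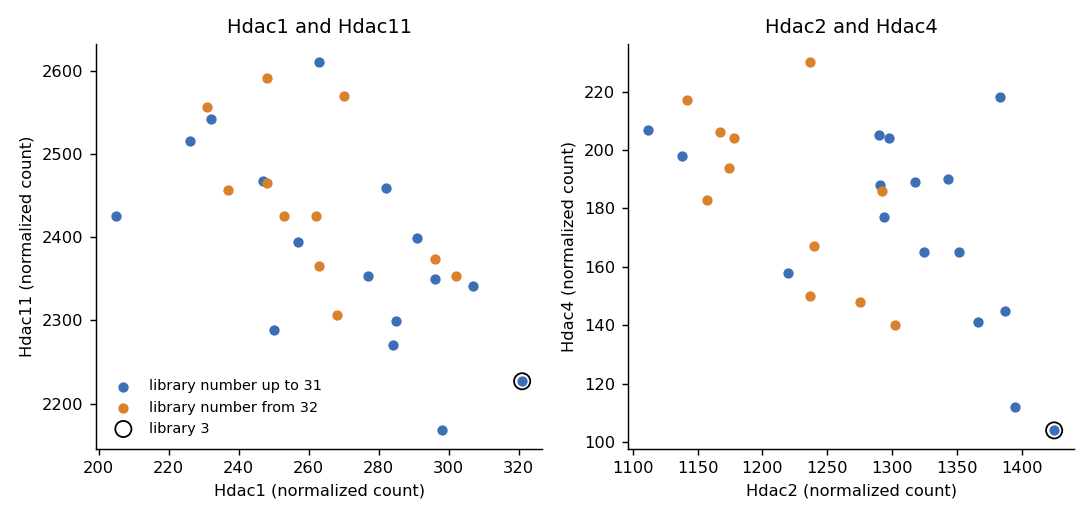
Normalized counts of Hdac1 against Hdac11 (left) and of Hdac2 against Hdac4 (right), with 1 point per library, blue up to number 31, orange from 32 and library 3 circled. Levels fall from left to right in both panels (rho = -0.653 and -0.537).

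No pair within a class passed the test. The class I pairs had rho from -0.342 to 0.341, and 5 of these 6 were positive. Hdac1 and Hdac2, which share several complexes, had rho = 0.0330 and r = 0.0136, with a 95% interval of r from -0.368 to 0.392. A moderate relation in either direction is inside that interval. The class IIa pairs Hdac4 with Hdac5 and Hdac4 with Hdac9 had rho near 0.27, and Hdac5 with Hdac9 had -0.290. Their r was 0.136, 0.505 and -0.281. The r of Hdac4 with Hdac9 had a 95% interval from 0.155 to 0.743 and a permutation p of 0.00723, with an adjusted p of 0.0604. Without the 2 farthest libraries this r was 0.437, and without library 3, the lowest of both genes, rho was 0.182. None of these 9 pairs passed the test under any of the 9 alternatives.

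**Figure D4:**
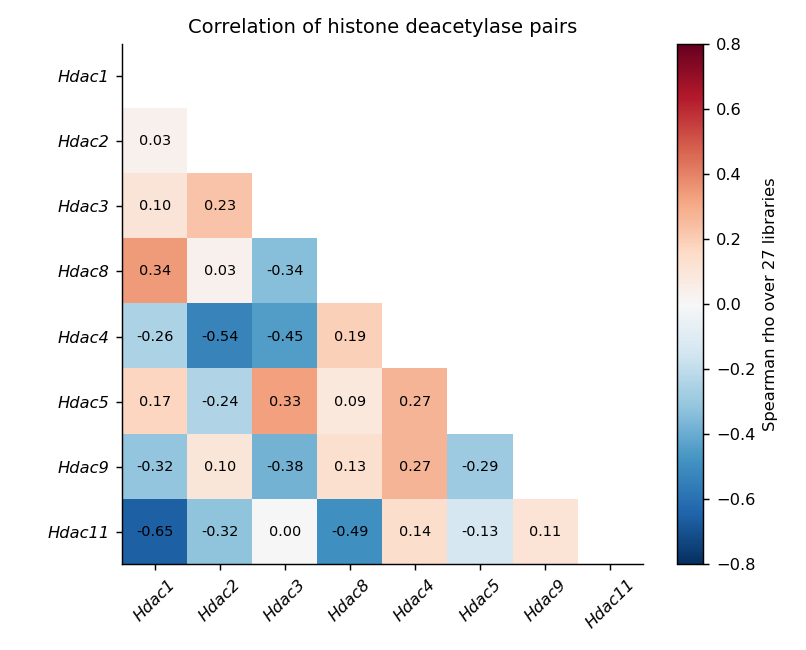
Spearman rho of each of 28 pairs of histone deacetylases over 27 libraries, on a colour scale from blue (negative) to red (positive) with the value in each cell. The darkest cell is Hdac1 with Hdac11 (-0.65), followed by Hdac2 with Hdac4 (-0.54).

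Members differed in how many genes at large followed them. Hdac9 was correlated with 12.0% of 11729 genes, Hdac2 with 11.8% and Hdac4 with 8.53%. Hdac5 was correlated with 2.83%, Hdac1 with 1.40%, Hdac8 with 1.23%, Hdac3 with 1.22% and Hdac11 with 1.07%. Centred within number sets, the share for Hdac2 was 4.12%, that for Hdac9 8.98% and that for Hdac4 9.63%. Without library 3 it was 8.56% for Hdac2, 7.72% for Hdac9 and 4.09% for Hdac4. The other members then had from 0.315% (Hdac11) to 2.37% (Hdac5), and from 0.358% (Hdac8) to 2.92% (Hdac5) when centred. The 2 members with the widest spread, Hdac9 and Hdac4, were thus among the 3 with the most correlated genes, but Hdac2 was among the steady ones.

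The genes most like each member are given by rho over 27 rats, as a description. Hdac9 was most like Mblac2 (0.901), Snrnp200 (0.891) and Arl5a (0.882), which encode a metallo-beta-lactamase domain protein, a spliceosome helicase and a small GTPase of the Golgi. Lowest for Hdac9 was Caly (-0.863), a partner of dopamine receptors. Hdac4 was most like Gtf3c1 (0.877), a subunit of the RNA polymerase III factor TFIIIC, Pde4dip (0.874), a centrosome and Golgi scaffold, and Fbxo41 (0.871), a neuronal F-box protein, and its lowest was C1h11orf58 (-0.817). Hdac2 was most like Cct4 (0.886), a chaperonin subunit, the phosphatase gene Ptp4a1 (0.883) and Terf2ip (0.871), a telomere protein. Lowest for Hdac2 was Cabin1 (-0.864), an inhibitor of calcineurin that also represses Mef2. All 12 of these values had the same sign when levels were centred within the number sets, from 0.675 for Terf2ip to 0.914 for Gtf3c1 among the positive ones. Without the 2 libraries farthest from the median of the member, which include library 3 for Hdac4 and Hdac9, r ranged from 0.796 to 0.877 for the positive 9 and from -0.830 to -0.711 for the negative 3.

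The other members had weaker nearest genes. Hdac5 was most like Lgi4 (0.761), Nr1h2 (0.745) and Pomgnt1 (0.713), a myelination ligand of glia, the liver X receptor beta and an enzyme of dystroglycan glycosylation, and its lowest was Tdrkh (-0.748). Hdac3 was most like Vps16 (0.756), Mrgbp (0.733) and Idh3g (0.731), a subunit each of endolysosomal tethering complexes, of the NuA4 acetyltransferase and of isocitrate dehydrogenase. Its lowest was Pik3r3 (-0.798), a regulatory subunit of PI3 kinase. Hdac8 was most like Fkbp14 (0.774), F3 (0.746) and Ezr (0.715), of which tissue factor F3 and ezrin are both known from astrocytes, and its lowest was B4galnt4 (-0.726). Hdac1 was most like Lyl1 (0.755), Mvp (0.717) and Exosc5 (0.709), with Usp8 lowest (-0.719), and Hdac11 was most like Sfxn3 (0.754), Rangap1 (0.750) and Ino80b (0.698), with Cks2 lowest (-0.752). The r without the 2 farthest libraries ranged from 0.562 for Exosc5 with Hdac1 to 0.783 for Vps16 with Hdac3 among the positive ones.

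Partner genes were taken from 11 lists of complexes, kinases, binding proteins, other histone enzymes and readers. Of 92 genes listed, 91 had a row, 73 were tested, and 17 were listed at 0. Over 8 members 44 of 584 pairs with a partner gene were called, or 7.53%, beside 5.01% of all pairs of a member with a gene. The called pairs lay mostly with the members that had many correlated genes in general, 16 with Hdac2, 13 with Hdac4 and 8 with Hdac9. For Hdac2 this was 21.9% of the partner genes tested and for Hdac4 17.8%, beside 11.8% and 8.53% of all genes. The share for Hdac9 was slightly below its 12.0% of all genes. The differences between these shares were not tested. Hdac1 had 0 of 73 by the permutation test of rho, with 7 at an unadjusted p under 0.05, and 2 of 73 by Pearson's r. Without library 3 the count over all members was 31 of 584, where 3.09% of all pairs of a member with a gene passed. Centred within number sets it was 32 of 584, beside 3.60%. By r it was 90 of 584, beside 10.6%.

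For Hdac2 the partners went both ways, 8 up and 8 down. Centred within number sets 7 were called, 3 up and 4 down, and without library 3 there were 13. In the NuRD list Hdac2 rose with the histone chaperone Rbbp7 (rho = 0.642, permutation test, adjusted p = 0.0190) and fell with the scaffold Mta1 (rho = -0.704, adjusted p = 0.00783), the only 2 of 9 tested that were called. Without library 3 the adjusted p of Rbbp7 was 0.0510 and that of Mta1 0.0111, and neither was called when centred (rho = 0.457 and -0.308, adjusted p = 0.166 and 0.394). Of the other NuRD genes tested, 1 was called as rising and 1 as falling with Hdac2 when centred. In the list of MiDAC and Mier genes it fell with Trerf1 (rho = -0.750, adjusted p = 0.00317) and rose with Mier3 (rho = 0.600, adjusted p = 0.0310). Centred, Trerf1 was still called (adjusted p = 0.0455) and Mier3 was not (rho = 0.449, adjusted p = 0.17). Of 6 tested 14-3-3 genes 4 rose with Hdac2, led by Ywhae (rho = 0.793, adjusted p = 0.00317), and 2 of them still did when centred within number sets. The median rho of the 14-3-3 list with Hdac2 was 0.638, and that of all genes was 0.00153. Hdac3 itself was not called with any of the 4 tested genes of its NCoR complex, with rho from -0.338 for Ncor1 to 0.268 for Gps2.

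Among the class IIa genes, Hdac9 was called with Mef2a and Hdac4 with Mef2d. Of the 4 Mef2 genes Mef2c was listed at 0 and Mef2b was under the minimum. Hdac9 rose with Mef2a (rho = 0.802, adjusted p = 0.00494), and Hdac4 rose with Mef2d (rho = 0.695, adjusted p = 0.0118). Their r without the 2 farthest libraries was 0.742 and 0.652, and both calls were also made centred within number sets and without library 3 (adjusted p = 0.00742 and 0.0266). Hdac5 was called with neither, with rho = 0.110 for Mef2d and -0.461 for Mef2a. Outside the class, Hdac2 fell with Mef2d (rho = -0.605, adjusted p = 0.0308, and 0.0723 without library 3), with a centred rho of -0.459 (adjusted p = 0.159). Among 13 tested kinases of class IIa enzymes, Hdac4 rose with 2 and fell with 1. It rose most with Camk2a (rho = 0.729, adjusted p = 0.00564), the alpha subunit of CaMKII, and fell with Camk1 (rho = -0.684, adjusted p = 0.00873). Hdac9 rose with 2 and fell with 1 kinase, from Camk1d (rho = 0.685, adjusted p = 0.00916) to Prkd2 (rho = -0.603, adjusted p = 0.0305). Without library 3 the adjusted p was 0.0164 for Camk2a and 0.0292 for Camk1 with Hdac4, and 0.0321 for Camk1d and 0.0687 for Prkd2 with Hdac9. That left 2 kinases called with Hdac4 and 1 with Hdac9. Centred within number sets Prkd2 was not called either (adjusted p = 0.119). Hdac5 was called with none of the 13. Of the 14-3-3 genes 2 fell with Hdac4, the strongest Ywhaq (rho = -0.747, adjusted p = 0.00629), and 1 did without library 3. The strongest partner of Hdac4 was Chd5 (rho = 0.816, adjusted p = 0.00317), the neuronal helicase of NuRD, with r = 0.829 without the 2 farthest libraries. Hdac5 rose with Gatad2a of NuRD (rho = 0.679, adjusted p = 0.0113) and Hmg20b of CoREST (rho = 0.598, adjusted p = 0.0304), the latter with an adjusted p of 0.0698 without library 3 and 0.0791 when centred.

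The other lists gave few calls. Of 6 tested sirtuins, the NAD-dependent deacetylases, 1 fell with Hdac4, namely Sirt5 (rho = -0.614, adjusted p = 0.0297), and 1 fell with Hdac9, namely Sirt3 (rho = -0.636, adjusted p = 0.0214). All 6 had a negative rho with Hdac9, with a median of -0.509 where that of all genes was -0.0305. Their unadjusted permutation p was under 0.05, as for 35 of the 73 partner genes with Hdac9. Of 7 tested acetyltransferases 2 fell with Hdac8, with Kat8 lowest (rho = -0.591, adjusted p = 0.0385), 1 rose with Hdac2, Hat1 (rho = 0.652, adjusted p = 0.0163), and 1 rose with Hdac4, Kat6a (rho = 0.607, adjusted p = 0.0302). Of 6 bromodomain readers of acetylated histones 2 fell with Hdac2, of which 1 was called without library 3, and Brd3 rose with Hdac4 (rho = 0.697, adjusted p = 0.0101). In the Sin3 list Arid4a rose with Hdac2 (rho = 0.689, adjusted p = 0.0101) and Sin3a with Hdac4 (rho = 0.569, adjusted p = 0.0470). Without library 3 the calls of Sirt5, Kat6a and Sin3a with Hdac4 and of Kat8 with Hdac8 were lost. Their rho was then -0.567, 0.572, 0.527 and -0.592 (adjusted p = 0.0701, 0.0672, 0.102 and 0.0545). Centred within number sets the calls of Arid4a and Hat1 with Hdac2 were lost, at rho = 0.562 and 0.595 (adjusted p = 0.0676 and 0.0516). So were those of Sin3a and Sirt5 with Hdac4 (adjusted p = 0.0522 and 0.0570), of Sirt3 with Hdac9 (0.0920) and of Kat8 with Hdac8 (0.115). No acetyltransferase was called with Hdac8 when centred or without library 3.

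Between the number sets only Hdac2 differed. It stood at 1308 ± 87.9 in the libraries up to 31 (1112 to 1425, n = 16) and at 1218 ± 57.1 in those from 32 (1142 to 1302, n = 11). The sets overlapped. The log2 change was -0.10 ± 0.0365 (SE) with an adjusted p of 0.0490 in edgeR's quasi-likelihood test. This makes 1 of 8 members, or 12.5%, where 18% of 11716 genes were called. Over 5 alternatives the adjusted p ran from 0.0275 to 0.0876, and without library 3 it was 0.0876. The other 7 members had log2 changes from -0.15 for Hdac9 to 0.09 for Hdac4, and none passed. Against the total reads of a library 2 of 8 members were called, or 25%, beside 16.4% of all genes. These were Hdac11, given above, and Hdac8 (rho = -0.534, permutation p = 0.00461, adjusted p = 0.0332). The r of Hdac8 was -0.502 without the 2 farthest libraries, while that of Hdac11 was 0.391. Centred within number sets neither was called, at an adjusted p of 0.188 for Hdac11 and 0.303 for Hdac8, and 0 of 11730 genes were. The centred rho of Hdac11 was 0.612 (permutation p = 0.00134), no smaller than before centring, and that of Hdac8 was -0.401 (permutation p = 0.0441). The log2 counts of 18S rRNA, which polyA selection should leave out, were called with none of the members, beside 0.128% of all genes. The largest rho with 18S rRNA was that of Hdac11 (-0.401, permutation p = 0.0389, adjusted p = 0.295), and it was the only 1 of 8 with an unadjusted p under 0.05.

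Cell content was read from scores of cell type marker lists, and immediate early genes were scored too. Each of the 8 scores is the mean z score of the genes in its list. Each slope is a log2 change per SD of the score, from edgeR's quasi-likelihood test over all genes outside the list. With the excitatory neuron score Hdac11 rose by 0.037 ± 0.014 (SE, adjusted p = 0.0484). It was the single call among 8 members, 12.5% beside 23.7% of 12017 genes, and 5 of 8 members had an unadjusted p under 0.05. Hdac1 had a slope of -0.072 ± 0.027 (adjusted p = 0.0530) and Hdac2 of -0.048 ± 0.019 (adjusted p = 0.0658). Library 3 had the lowest excitatory score, -2.70, though its excitatory markers summed to 44800 normalized counts, above the median of 42588 in the other 26. Leaving out library 3 gave Hdac11 a slope of 0.038 ± 0.016 (adjusted p = 0.150). Of 8 members 0 were then called by edgeR, where 9.73% of genes were. At an unadjusted p under 0.05 there was then 1 member. Hdac9 had the steepest slope, 0.19 ± 0.087 (adjusted p = 0.110). With the number set in the model it was 0.33 ± 0.089 (adjusted p = 0.00895), the single call of that model, where 22.5% of genes passed, and without library 3 it was 0.11 ± 0.093 (adjusted p = 0.559). Over 6 alternatives the adjusted p ran from 0.0127 to 0.150 for Hdac11 and from 0.00895 to 0.559 for Hdac9. Among partner genes, Mef2d rose with the excitatory neuron score by 0.236 per SD (adjusted p = 3.3e-05), and Mef2a had a slope of 0.00739 (adjusted p = 0.941). With the number set in the model Mef2a had a slope of 0.135 (adjusted p = 0.0483). Of 13 tested kinases of class IIa enzymes 6 rose and 1 fell, beside 23.7% of genes called. The part of cell content in the relations of members to these partners was not tested.

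**Figure D5:**
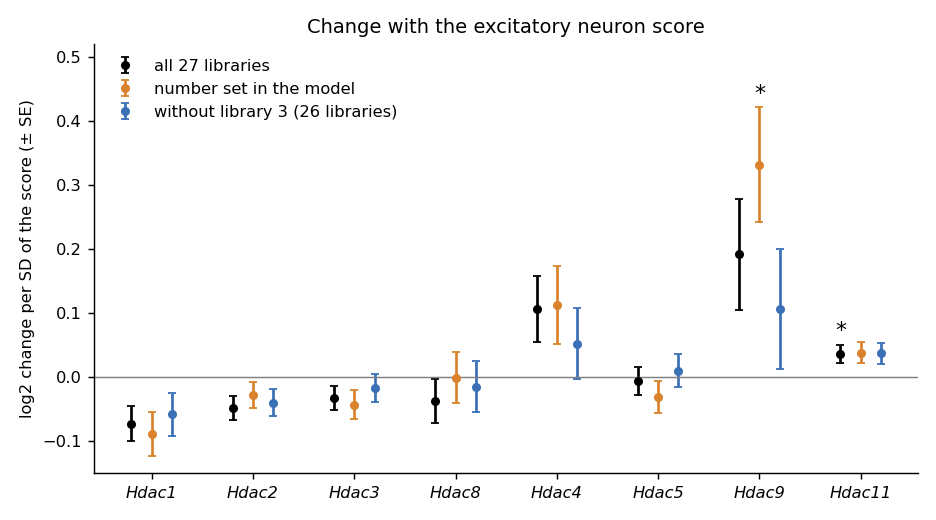
Log2 change per SD of the excitatory neuron score (points, with SE bars) for 8 histone deacetylases, over all 27 libraries (black), with the number set in the model (orange) and without library 3 (blue). Asterisks mark an adjusted p under 0.05, reached by Hdac11 over all libraries and by Hdac9 with the number set in the model.

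With the other 7 scores no member was called by edgeR or, as a second tool, by DESeq2. The background was 1.51% of genes for the oligodendrocyte score, 1.68% for the astrocyte score, 0.527% for microglia, 0.251% for vascular cells, 2.57% for meningeal fibroblasts, 17.6% for interneurons and 0.0336% for immediate early genes. At an unadjusted p under 0.05 there was 1 member with the astrocyte score and 1 with the interneuron score, and none with the other 5. The first was Hdac8, which had a slope of 0.10 ± 0.029 per SD of the astrocyte score (adjusted p = 0.0685), with a slope of 0.093 ± 0.031 without library 3 (adjusted p = 0.166). The second was Hdac1, at -0.070 ± 0.028 per SD of the interneuron score (adjusted p = 0.0795), and at -0.0595 ± 0.0399 without library 3 (adjusted p = 0.629). The summed level of the 10 astrocyte markers ran from 22740 through 26956 to 34330 normalized counts and that of 9 interneuron markers from 5776 through 6891 to 7804, with Sst listed at 0. Microglia markers ran from 2075 to 3356 with Ctss at 0, vascular markers from 2796 to 4904, meningeal fibroblast markers from 1103 to 17241, and immediate early genes from 4100 to 9889. Fibroblast marker reads thus differed 15.6 times between samples, and the slopes of the 8 members on that score did not pass the test.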

How the data were processed

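RNA was sequenced as single reads on a NextSeq500, from polyA RNA per the labels. The labels and the study's methods name different library kits. The authors deposited raw counts of reads per gene, without normalization, and the submitters' processing notes name Trimmomatic, STAR and HTSeq. The genome build, the annotation and the use of strand are not given in the sources used here. Members and lists were chosen with earlier results of these data known.

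Rows were named by NCBI gene ID from RefSeq (GRCr8). Size factors came from the median-of-ratios method in DESeq2 1.42.0, and log values are log2(normalized count + 1). A gene was tested if its mean count reached 10. Spread was tested by a chi-square dispersion test against Poisson counts, relations by 100000 two-sided permutations of rats (within number sets where centred), and differences and slopes by edgeR's quasi-likelihood test (version 4.0.16, TMM, filterByExpr), all adjusted by the Benjamini-Hochberg method over all genes or pairs tested. The 95% intervals of r used Fisher's z. The methods recovered known changes in simulated data, with planted slopes steeper than those of the members here. Recovery of slopes and pair correlations as small as those of the members was not tested. Alternatives were other scalings, no filter, a pseudocount of 0.1, Pearson's r, centring, the DESeq2 Wald test, the number set as a covariate, leaving out libraries 12 and 20 and, chosen after the data were seen, leaving out library 3. The relations to total reads and 18S rRNA were also added after the data were seen. The genes named are the members, the 3 genes with the highest rho and the 1 with the lowest for each, the highest and lowest partner of a list, and partners listed at 0. Some partner genes are not reported here. Counting error assumes independent reads, and reads without molecular identifiers are not independent molecules. The tools ran under R 4.3.3 and Python 3.11.15, the latter using scipy 1.17.1 and numpy 2.4.6.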

Additional observations from a re-analysis of the deposited data

How the results depend on the processing

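The spread of all 8 members stayed beyond counting error under every alternative run. Of 28 member pairs 1 was called, but 3 were with Pearson's r and 0 with total counts, where Hdac1 with Hdac11 had rho = -0.471. The number of members that differed between number sets was 1, and 0 without a filter on low counts, without libraries 12 and 20, and without library 3. Hdac2 then had log2 changes of -0.0963, -0.102 and -0.0870. For the excitatory neuron score 1 member was called, but 2 by DESeq2's Wald test, 2 without libraries 12 and 20, and 0 without library 3. With total reads 2 members were called, and 0 centred within number sets, where the rho of Hdac11 was 0.612 against 0.568. The cause of these changes was not tested. No called value changed sign. For member pairs, number sets and scores under the alternatives, 665 values stayed on their side of the threshold, 5 passed it only under an alternative and 6 lost their call. The relations to total reads are not in these counts, and there Hdac11 and Hdac8 lost their calls when centred. Without library 3 no gene outside the list was called for the interneuron score (0 of 11966), so that model says little about the members. No paired analysis was possible because all libraries belong to 1 group and a library number names 1 rat.

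Counting error took the largest share of the variance for Hdac8, 62.7%, with 77 to 185 reads per library.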
